A study of Homo sapiens with 6 samples.

Results

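Collagen chain genes encode the α chains that assemble into collagens, the main structural proteins of the extracellular matrix. Their RNA levels were taken from 6 RNA-seq libraries of ARPE-19 cells, an established line of human retinal pigment epithelium (RPE), the cell layer behind the photoreceptors. Every row whose symbol consists of COL, a number, A and a number was used. The rule found 37 genes among the 33496 genes of each library, of which 10 encode fibrillar chains, 6 encode the type IV chains of basement membranes and 21 encode other chains. A written list of human collagen chains by class also held COL1A2, COL9A1, COL14A1, COL19A1, COL20A1, COL6A5 and COL26A1, which were not analysed here.

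All 6 libraries came from cells of the WT genotype that received erastin (5 μM, 24 h). Erastin blocks cystine import and leads to ferroptosis, an iron-dependent cell death with lipid peroxidation. For 3 libraries erastin was given alone (Era). For the other 3, cells were given VK1, a form of vitamin K, at 10 μM for 1 h before erastin (Era+VK). Cultures that received no erastin are not analysed here, and each comparison is between erastin with VK1 and erastin without it. The labels do not say whether the 3 libraries of a group came from separate cultures, so the p-values measure only the spread between these libraries, which may be technical.

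Values are FPKM, that is fragments scaled by transcript length and by the total of mapped fragments, so levels can be set side by side between genes. They hold no fragment counts, and the depth of each library is unknown. Between 11924 and 12027 genes per library reached 1 FPKM, and mitochondrially encoded genes held 16.0% to 18.5% of a library's FPKM. Of 12 RPE markers, 7 averaged 1 FPKM or more. OTX2 (27.5 to 31.35 FPKM) and the epithelial keratins KRT8 and KRT18 were well above that level, whereas RPE65 (0 to 0.02 FPKM) and RLBP1 (0 to 0.29 FPKM), both defining markers of mature RPE, were near 0, and BEST1 ranged from 0.6 to 56.98 FPKM irrespective of group. Of 10 mesenchymal markers, 6 averaged 1 FPKM or more, with DCN and LUM listed at 0 in all libraries. Their summed level, most of it VIM, was 970 to 1003 FPKM in Era and 808 to 849 FPKM in Era+VK. Members differed in direction, since PDGFRB was at 25.2 to 29.01 FPKM in Era and 32.33 to 40.86 in Era+VK, and S100A4 at 1.23 to 1.88 and 1.99 to 2.38 FPKM. Erythroid markers set 2 libraries apart. Their sum over 9 genes was 0.07 to 0.21 FPKM in Era and only 0.14 FPKM in Era+VK replicate 1, but 238.3 and 231.3 FPKM in Era+VK replicates 2 and 3. None of 5 endothelial markers averaged 1 FPKM, and their sum was at most 1.07 FPKM. The part of the mesenchymal and erythroid differences in the collagen values was not tested, and each comparison was also made without Era+VK replicates 2 and 3.

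A collagen molecule is a trimer of α chains wound around each other, and the winding requires glycine at regular places in a repeated amino acid triplet, often with proline and hydroxyproline at the other two. Fibrillar collagens form cross-striated fibrils from one long unbroken helix, type IV collagens form the sheet-like network of basement membranes, and the remaining types form short-chain networks, beaded filaments, anchoring fibrils or molecules that sit on the surface of fibrils. In the eye, RPE cells rest on Bruch's membrane, whose inner layer is their own basement membrane.

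The repeat can be read in the coding sequences of GENCODE 29 (GRCh38) as a glycine codon, GGN, at every 9 bases. The windows of 90 coding bases printed here begin at the longest unbroken run of such triplets in the 5 chains with the highest level in these libraries, to show that genes of different classes share the repeat that the name collagen stands for. Capitals mark the GG of the glycine codons.
COL8A1, coding bases 1051 to 1140: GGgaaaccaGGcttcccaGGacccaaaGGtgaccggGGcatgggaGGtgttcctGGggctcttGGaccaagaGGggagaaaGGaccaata
COL12A1, coding bases 8407 to 8496: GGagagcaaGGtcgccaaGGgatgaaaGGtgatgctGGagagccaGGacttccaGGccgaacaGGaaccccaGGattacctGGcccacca
COL11A1, coding bases 1621 to 1710: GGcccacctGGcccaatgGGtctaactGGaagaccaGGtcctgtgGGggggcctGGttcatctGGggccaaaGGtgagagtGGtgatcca
COL18A1, coding bases 2794 to 2883: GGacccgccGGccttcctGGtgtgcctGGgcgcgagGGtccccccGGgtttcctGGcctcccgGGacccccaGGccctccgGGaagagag
COL4A2, coding bases 2344 to 2433: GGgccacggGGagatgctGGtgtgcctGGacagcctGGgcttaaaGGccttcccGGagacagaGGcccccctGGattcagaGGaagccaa

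The windows look alike, but the length of the run differed by class. The longest unbroken run had a median of 338 triplets (216 to 343) over the 10 fibrillar genes, 41 triplets (38 to 66) over the 6 basement membrane genes and 57 triplets (28 to 113) over the 21 others. In COL11A1, a fibrillar chain, 338 triplets ran on without a break. In COL4A2 the longest run was 66 triplets, and the repeat was split into 24 runs of at least 5 triplets that together took up 75.2% of the coding sequence. COL12A1 stood at the other end, since its runs covered only 8.23% of a coding sequence of 9189 bases.

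Type IV genes lie in pairs that point away from each other. COL4A1 (chromosome 13, 110148963 to 110307233, minus strand) and COL4A2 (chromosome 13, 110305812 to 110513209, plus strand) overlap in GENCODE 29, where COL4A2 has a transcript that starts within COL4A1. The RefSeq starts used here (GRCh38.p14) differ, and leave 126 bases between them that lie upstream of both genes. This stretch is printed on the plus strand because these were the basement membrane chains with the highest levels, and capitals mark a CCAAT box and a GC box (GGGCGG).
chr13:110307158-110307283: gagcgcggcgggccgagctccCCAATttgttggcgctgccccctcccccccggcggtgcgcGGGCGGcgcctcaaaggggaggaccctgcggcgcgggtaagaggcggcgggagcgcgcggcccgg
The stretch holds 80.2% G and C, against a median of 60.3% over windows of the same length from 35116 RefSeq promoters. On either strand, CCAAT occurred in 21.1% of those windows and GGGCGG in 34.6%. TATAAA, found in 5.87% of them, was not among the letters of this stretch. These matches describe the sequence and are no evidence of binding. COL4A4 and COL4A3 on chromosome 2 have starts with 418 bases between them, and COL4A6 and COL4A5 on chromosome X have 379.

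Of the 37 genes, 12 averaged 1 FPKM or more over the 6 libraries and 8 of these averaged 10 FPKM or more. The 12 were 3 of the 10 fibrillar genes (COL11A1, COL5A2 and COL5A1), 5 of the 6 basement membrane genes (all except COL4A6) and 4 of the 21 others (COL8A1, COL12A1, COL18A1 and COL6A1). Of the summed FPKM of the 37 genes in a library, the other classes held 52.5% to 56.2%. Type IV chains held 23.0% to 25.8% and fibrillar chains 20.6% to 22.1%. The basement membrane class holds type IV chains only. COL18A1 (mean 54.7 FPKM), of the basement membrane zone, was counted among the others. The shares leave out the chains not analysed, such as COL1A2, a fibrillar chain. Together the 37 genes made up 0.179% to 0.207% of a library's FPKM.

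**Figure D1:**
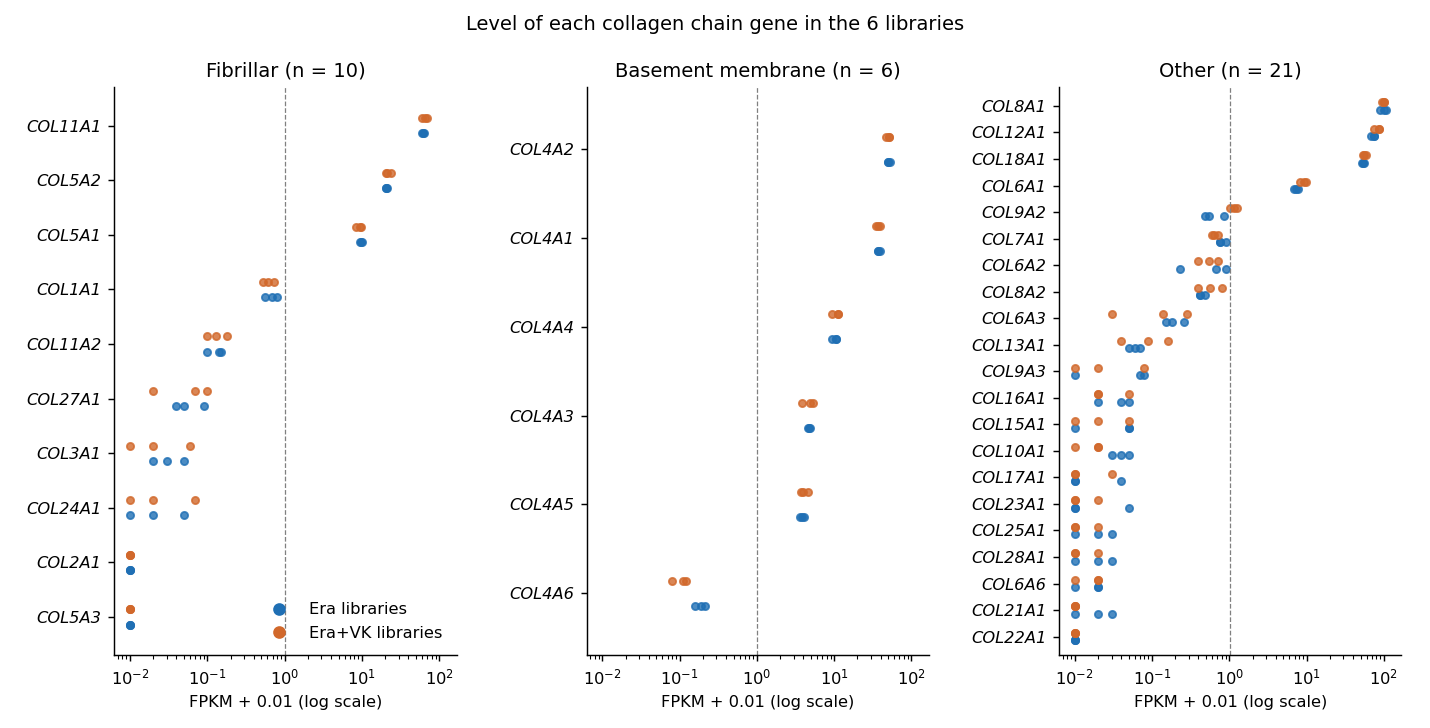
Level of each of the 37 collagen chain genes in each library, in 3 panels by class. The horizontal axis is FPKM + 0.01 on a log scale, each point is a library (blue Era, orange Era+VK), and the dashed line marks 1 FPKM. Of the 37 genes, 12 have means to the right of the line (3 fibrillar, 5 basement membrane, 4 other), and their points of both groups lie close together.

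Among the other chains, COL8A1 led the 37 genes with a mean of 99.1 FPKM, rank 268 of all genes. It encodes a short chain of the hexagonal network first described in the membrane beneath the corneal endothelium and also known from Bruch's membrane. The gene lies on chromosome 3 (99638475 to 99799226, plus strand) and has 2 coding exons. Its level was 101.7, 106.2 and 90.08 FPKM in Era replicates 1, 2 and 3 and 99.69, 101.2 and 95.62 FPKM in the Era+VK replicates. The lowest and the highest value were both from Era, so the Era+VK values lay within the Era range. COL8A2, which encodes the other chain of type VIII, had a mean of 0.505 FPKM, and COL8A1 was 126 to 260 times higher in each library.

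COL12A1, on chromosome 6 (75084326 to 75206051, minus strand), encodes a chain that sits on fibril surfaces (a FACIT collagen). It was measured at 74.88, 75.22 and 68.48 FPKM in Era and at 86.49, 74.61 and 85.82 FPKM in Era+VK. Era+VK replicates 1 and 3 were above all Era libraries, and replicate 2 fell among them. COL18A1, on chromosome 21 (45405137 to 45513720, plus strand), encodes the basement membrane zone collagen from which endostatin, an inhibitor of angiogenesis, is cleaved. Its level was 52.72, 54.37 and 54.97 FPKM in Era and 58.27, 53.00 and 54.69 FPKM in Era+VK, with overlapping groups. Of its exonic bases, 1401 (16.4%) overlap SLC19A1 on the opposite strand. SLC19A1 was at 2.55 FPKM, and whether the counting used strand is not given in the sources used here, so reads of the shared bases cannot be told apart.

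COL6A1 was the lowest of the 4, at 7.22, 7.76 and 6.84 FPKM in Era and 9.83, 9.29 and 8.13 FPKM in Era+VK. It lies on chromosome 21 (45981737 to 46005050, plus strand) and encodes a chain of the beaded filaments that surround cells. All Era+VK values lay above all Era values. Type VI molecules are built from this chain, an α2 chain and an α3 chain. COL6A2 (0.22 to 0.89 FPKM) and COL6A3 (0.02 to 0.27 FPKM) were low, so COL6A1 exceeded COL6A2 by 7.69 to 32.8 times and COL6A3 by at least 27.4 times in each library.

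Of the basement membrane chains, COL4A2 and COL4A1 encode the partners of the α1α1α2 trimer found in nearly all basement membranes. COL4A2 was at 49.41, 49.80 and 52.09 FPKM in Era and 51.06, 46.52 and 50.51 FPKM in Era+VK. COL4A1 was at 36.40, 36.67 and 38.86 FPKM in Era and 38.88, 35.01 and 36.68 FPKM in Era+VK. The groups overlapped for both. The ratio of COL4A2 to COL4A1 stayed between 1.31 and 1.38, the narrowest range of the 7 pairs of chains compared. Both genes were lowest in Era+VK replicate 2. Pairs with COL4A6, COL6A2, COL6A3 or COL8A2 had a chain averaging under 1 FPKM, so the ranges are not on an equal footing.

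COL4A4, COL4A3 and COL4A5 encode the chains of the α3α4α5 trimer, known from the kidney glomerulus and other specialised basement membranes. COL4A4, on chromosome 2 (227002711 to 227164453, minus strand), was at 10.49, 9.30 and 10.42 FPKM in Era and 11.25, 9.36 and 11.28 FPKM in Era+VK, again with overlap. COL4A3 averaged 4.72 ± 0.130 FPKM (SD, n = 3) in Era and 4.67 ± 0.747 in Era+VK, and COL4A5 averaged 3.84 ± 0.260 and 4.12 ± 0.449 FPKM. COL4A4 exceeded COL4A3 by 2 to 2.44 times in each library. The sixth type IV gene, COL4A6, was at 0.07 to 0.2 FPKM.

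Fibrillar chains were led by COL11A1, on chromosome 1 (102876467 to 103108872, minus strand), whose product is a minor fibrillar collagen known from cartilage and the vitreous. Its level was 63.17, 59.60 and 61.11 FPKM in Era and 70.58, 59.59 and 66.61 FPKM in Era+VK, so that Era+VK held both the lowest and the highest value. COL5A2, on chromosome 2 (189031896 to 189225312, minus strand), encodes the α2 chain of type V, a collagen that sets the diameter of type I fibrils. It was at 21.14, 20.57 and 20.59 FPKM in Era and 23.61, 20.46 and 21.36 FPKM in Era+VK, with overlap. COL5A1 (α1 chain of type V) averaged 9.69 ± 0.272 FPKM (SD, n = 3) in Era and 9.12 ± 0.709 in Era+VK, and COL5A2 was 2.07 to 2.51 times higher in each library.

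Of the most abundant fibrillar collagens of connective tissue, the chains analysed here were low or listed at 0. COL1A2 was not among them. COL1A1, the α1 chain of type I, was at 0.52 to 0.79 FPKM, COL3A1 at 0 to 0.05 FPKM, and COL2A1 was listed at 0 in all libraries. COL11A1 thus averaged 63.4 FPKM beside no listed RNA of COL2A1, the cartilage collagen it accompanies, and its other partner COL11A2 was at 0.09 to 0.17 FPKM. COL5A3 and COL22A1 were also listed at 0 throughout. In all, 25 genes had a mean under 1 FPKM. The highest of these was COL9A2 (0.48 to 1.24 FPKM), a chain of a FACIT collagen, followed by COL7A1 (0.59 to 0.89 FPKM), which forms anchoring fibrils. COL13A1, COL27A1, COL9A3, COL16A1, COL15A1, COL24A1, COL10A1, COL17A1, COL23A1, COL25A1, COL28A1, COL6A6 and COL21A1 did not exceed 0.15 FPKM in any library.

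Ordered by mean over the 6 libraries, the 12 genes ran COL8A1, COL12A1, COL11A1, COL18A1, COL4A2, COL4A1, COL5A2, COL4A4, COL5A1, COL6A1, COL4A3 and COL4A5. Of the 11 pairs of neighbours, 7 had ranges that did not overlap between the genes. The ranges overlapped for COL12A1 and COL11A1 (the former higher in 6 of 6 libraries), COL4A4 and COL5A1 (5 of 6), COL5A1 and COL6A1 (4 of 6) and COL4A3 and COL4A5 (5 of 6).

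Summed over all 37 genes, the level was 438.9, 441.5 and 426.2 FPKM in Era and 473.7, 429.3 and 452.6 FPKM in Era+VK, or 435.5 ± 8.15 and 451.9 ± 22.2 FPKM (mean ± SD, n = 3). Fibrillar chains summed to 92.63 ± 1.84 FPKM in Era and 97.37 ± 7.79 in Era+VK, basement membrane chains to 106.6 ± 3.02 and 105.7 ± 6.34, and the others to 236.4 ± 11.5 and 248.8 ± 8.43. The groups overlapped for each of these 4 sums. With Era+VK replicates 2 and 3 left out, Era+VK replicate 1 alone was set against Era. The log2 ratio of the total was then 0.12 in place of 0.05. That of the fibrillar chains was 0.18 in place of 0.07, and that of the basement membrane chains 0.06 in place of -0.01. Without Era+VK replicate 1, these log2 ratios were 0.02, 0.02 and -0.05, in the same order.

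**Figure D2:**
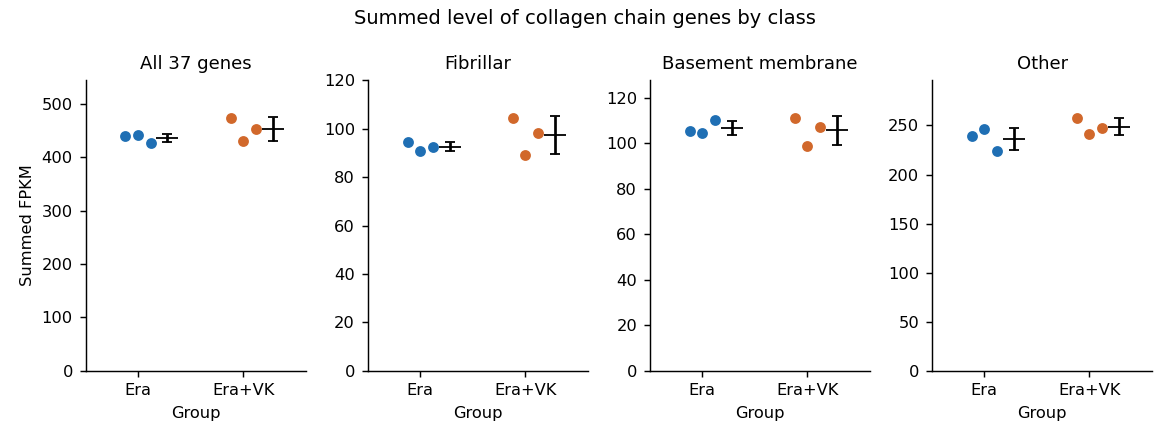
Summed FPKM of the 37 collagen chain genes and of each class, by group. Each coloured point is a library, the black mark with its bar is the mean ± SD of 3 libraries, and each vertical axis starts at 0 FPKM. The Era+VK points spread more widely than the Era points for the total (429.3 to 473.7 against 426.2 to 441.5 FPKM), and the groups overlap in every panel. For the other chains the SD was larger in Era (11.5 FPKM) than in Era+VK (8.43 FPKM).

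Whether VK1 changed the RNA of collagen chains in erastin-treated cells was compared gene by gene. None of the 12 genes averaging 1 FPKM or more passed limma's test (adjusted p under 0.05, Benjamini-Hochberg over the 11981 genes tested), against 0.618% of all genes. At an unadjusted p under 0.05, 2 of the 12 passed, both higher in Era+VK, against 15.8% of all genes. The log2 fold changes of FPKM + 1 ran from -0.08 to 0.28 with a median of 0.05, beside a median of 0.03 for all genes tested. They were above 0 for 7 of the 12, against 63.3% of all genes, and for 6 of the 12 against 50.6% after rescaling by median ratio. Without Era+VK replicate 2, 10 of the 12 were above 0 (60.6% of all genes) and 4 had an unadjusted p under 0.05 (20.7%). Without Era+VK replicate 1, 6 were above 0 (64.2%) and 1 had an unadjusted p under 0.05 (13%). None was called in either of these fits. Without Era+VK replicates 2 and 3, which leaves replicate 1 as the only Era+VK library, 11 were above 0 (57.4%). In bulk RNA, fewer cells and less RNA per cell cannot be told apart.

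COL6A1 had the largest difference, from 7.27 ± 0.462 FPKM in Era to 9.08 ± 0.869 in Era+VK (SD, n = 3). Its log2 fold change was 0.28 (SE 0.07, 95% interval 0.11 to 0.46, limma adjusted p = 0.150). It was the only one of the 12 whose groups did not overlap, where 22.1% of all genes tested had groups without overlap. COL12A1 averaged 72.9 ± 3.80 FPKM in Era and 82.3 ± 6.67 in Era+VK. Its log2 fold change was 0.17 (SE 0.07, 95% interval 0.01 to 0.33, limma adjusted p = 0.291). These are the 2 genes with an unadjusted p under 0.05. Without Era+VK replicates 2 and 3 the log2 fold change of COL6A1 was 0.39 (limma adjusted p = 0.167), from a single Era+VK library.

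For the other 10 genes the adjusted p from limma was 0.521 or higher. COL8A1 averaged 99.3 ± 8.32 FPKM in Era and 98.8 ± 2.89 in Era+VK, and the 95% interval of its log2 fold change was -0.16 to 0.15. For COL4A1 the interval was -0.14 to 0.10, for COL4A2 -0.15 to 0.08 and for COL18A1 -0.08 to 0.14. COL11A1 had a log2 fold change of 0.09 (95% interval -0.06 to 0.24) and COL5A2 of 0.07 (-0.07 to 0.20), while COL5A1 had -0.08 (-0.22 to 0.06). The 3 remaining type IV genes had -0.02 (COL4A3, -0.24 to 0.20), 0.07 (COL4A4, -0.12 to 0.25) and 0.08 (COL4A5, -0.10 to 0.26). Medians by class were -0.02 for 5 basement membrane genes, 0.07 for 3 fibrillar genes and 0.10 for 4 others.

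**Figure D3:**
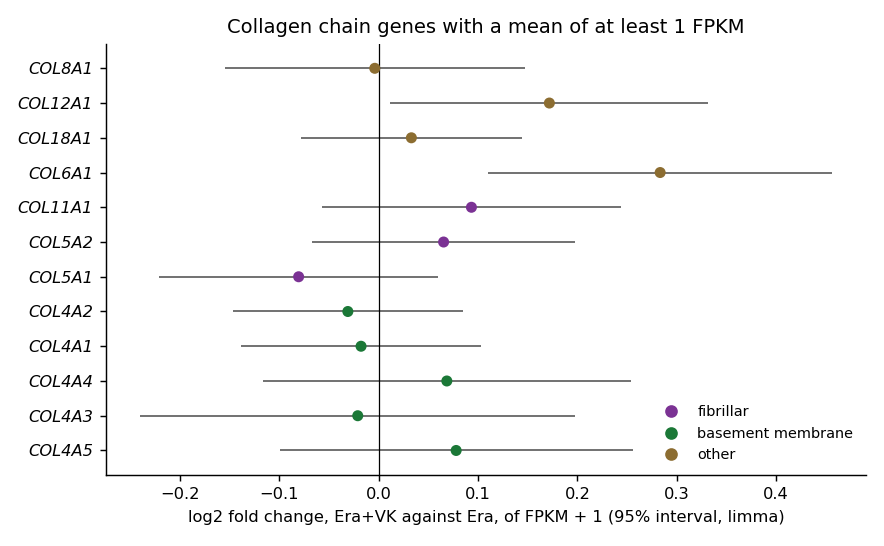
Log2 fold change of FPKM + 1, Era+VK against Era, for the 12 collagen chain genes averaging 1 FPKM or more. Points are coloured by class and bars are 95% intervals from limma. The bars of COL6A1 and COL12A1 lie to the right of 0, and those of the other 10 genes include 0.

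Below 1 FPKM, COL9A2 averaged 0.623 FPKM in Era and 1.12 in Era+VK without overlap of the groups. COL7A1 (0.797 against 0.637 FPKM), COL4A6 (0.177 against 0.0933 FPKM) and COL10A1 (at most 0.04 FPKM) had groups that did not overlap in the other direction. Without a filter on low values, groups did not overlap in 12.4% of the 31325 genes above 0 in any library. Fitted in that way, COL9A2 had a log2 fold change of 0.39 and an adjusted p of 0.373 in limma. The adjusted p was 0.676 for COL7A1, 0.384 for COL4A6 and 0.608 for COL10A1.

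For most of the 12 genes averaging 1 FPKM or more, the Era+VK libraries differed among themselves more than the Era libraries did. The SD of log2(FPKM + 1) was larger in Era+VK than in Era for 11 of the 12 genes, against 60.2% of all genes tested. COL8A1, the gene with the highest level, went the other way, with an SD of 8.32 FPKM in Era and 2.89 in Era+VK. So did the summed FPKM of the other chains (SD 11.5 in Era and 8.43 in Era+VK). Era+VK replicate 1 held the highest value of 8 of the 12 genes (19.7% of all genes), and Era+VK replicate 2 held the lowest value of 6 (15.5%) and the highest of none (25.2%). Replicate 1 is the Era+VK library without erythroid RNA and replicate 2 is one of the pair with it, and the part of that RNA in the spread was not tested. Replicate 3, the other library of the pair, held the lowest value of none of the 12.

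**Figure D4:**
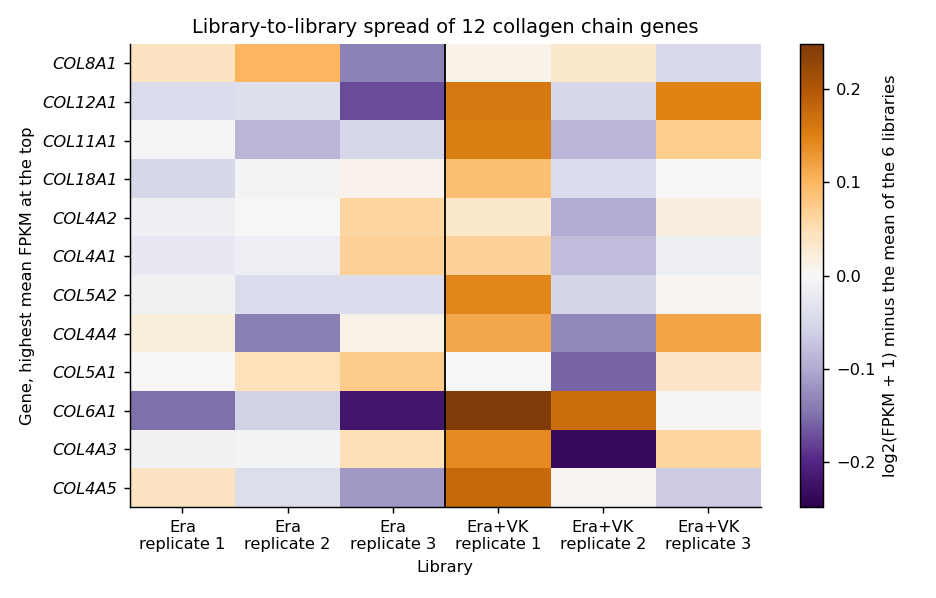
Deviation of log2(FPKM + 1) from the mean of the 6 libraries, for 12 collagen chain genes (rows, highest mean at the top) in each library (columns, with a line between Era and Era+VK). Orange is above and purple below the gene's mean. Era+VK replicate 1 is the highest library for 8 of the 12 genes and Era+VK replicate 2 the lowest for 6.

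Newly made chains pass through the enzymes and chaperones of the endoplasmic reticulum, are exported, trimmed by proteases and cross-linked outside the cell. Of a list of 42 genes for these steps, 32 averaged 1 FPKM or more, and none passed limma's test. At an unadjusted p under 0.05, 3 were higher and 4 lower in Era+VK, against 10.4% and 5.42% of all genes tested. The median log2 fold change was 0.02, with 20 above 0 and 12 below, a split that became 14 and 18 after rescaling by median ratio. The groups did not overlap for 6 genes higher in Era+VK and 6 lower, against 15.1% and 7.04% of all genes tested. ADAMTS14, counted as higher at both, passed the filter of 1 FPKM only through Era+VK. With at least 1 FPKM in every library it left the fit. Of the 31 genes then tested, 2 were higher (10.9% of all genes) and 5 lower at an unadjusted p under 0.05.

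Prolyl 4-hydroxylase stabilises the helix. Of its genes, P4HB averaged 145 ± 4.09 FPKM in Era and 142.2 ± 0.173 in Era+VK, P4HA1 averaged 57.4 ± 1.57 and 60.4 ± 0.659 FPKM, and P4HA2 averaged 12.98 FPKM in both, while P4HA3 was at 0.75 to 1.2 FPKM. Of the prolyl 3-hydroxylase genes, P3H2 differed most, with 2.88, 2.97 and 2.88 FPKM in Era and 3.75, 3.47 and 3.67 in Era+VK (0.24, limma adjusted p = 0.0948). Among the lysyl hydroxylases, which prepare cross-links, PLOD2 averaged 106.4 and 98.9 FPKM (limma adjusted p = 0.386) with overlapping groups. PLOD1 averaged 45.6 FPKM in Era and 48.4 in Era+VK (limma adjusted p = 0.341), and PLOD3 17.4 and 16.1 FPKM (limma adjusted p = 0.342). The groups of PLOD1 and PLOD3 did not overlap, in opposite directions. SERPINH1 encodes HSP47, the collagen-specific chaperone. It was at 37, 37.55 and 35.76 FPKM in Era and at 31.05, 34.40 and 31.68 FPKM in Era+VK, below Era in every library (log2 fold change -0.18, limma adjusted p = 0.166).

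Outside the cell, LOX, the lysyl oxidase that starts cross-linking, had the lowest log2 fold change of the list. It was at 121.1, 124.9 and 127.1 FPKM in Era and 101.4, 96.74 and 111.7 FPKM in Era+VK, without overlap (log2 fold change -0.27, SE 0.06, limma adjusted p = 0.103). LOXL2 (150.8 and 146.5 FPKM) and LOXL1 (44.4 and 43.3 FPKM) had overlapping groups. The procollagen proteases went both ways without passing the test. ADAMTS14 and ADAMTS2, which remove the amino-terminal propeptide, had log2 fold changes of 0.30 and 0.22 (limma adjusted p = 0.173 and 0.217), and TLL1 of the BMP1 family had -0.24 (limma adjusted p = 0.192). ADAMTS14 averaged 0.80 FPKM in Era and 1.21 in Era+VK, so its place among the genes tested rests on its Era+VK values. SPARC, a collagen-binding matrix protein, had the highest level of the list, with 227.1 ± 2.88 FPKM in Era and 228.3 ± 11.8 in Era+VK.

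The amino acids that collagen uses most are proline and glycine. Of 8 genes that make proline, or serine and glycine, from glutamate, glucose intermediates or each other, 4 fell in Era+VK in limma and none rose, against 0.484% and 0.134% of all genes tested. The median log2 fold change was -0.39, with 6 of 8 below 0. PSAT1, PHGDH, PSPH, SHMT2 and PYCR1 are known targets of the stress factor ATF4, whose targets were already known to be lower in these Era+VK libraries when the list was chosen, so the list is no independent evidence of its direction.

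PSAT1 was at 168.7, 163.2 and 163.8 FPKM in Era and at 69.91, 90.40 and 98.09 FPKM in Era+VK (log2 fold change -0.95, SE 0.11, limma adjusted p = 0.0196). SHMT2, the mitochondrial enzyme that turns serine into glycine, was at 63.35, 65.87 and 66.71 FPKM in Era and at 42.38, 48.58 and 48.64 FPKM in Era+VK (log2 fold change -0.48, SE 0.06, limma adjusted p = 0.0213). The groups of both were far apart. PSPH was at 8.24, 9.22 and 8.98 FPKM against 6.38, 6.32 and 6.78 FPKM (log2 fold change -0.39, SE 0.06, limma adjusted p = 0.0331). PYCR1, a mitochondrial enzyme of the last step to proline, was at 38.45, 38.49 and 40.51 FPKM against 22.77, 27.25 and 29.67 FPKM (log2 fold change -0.55, SE 0.09, limma adjusted p = 0.0479). Neither gene had overlapping groups.

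PHGDH, which opens serine synthesis, averaged 50.2 FPKM in Era and 38.03 in Era+VK (log2 fold change -0.39, limma adjusted p = 0.0552). ALDH18A1, the entry to proline synthesis from glutamate, had 25.01 and 26.6 FPKM (0.09, limma adjusted p = 0.340), and SHMT1 and PYCR3 had log2 fold changes of 0.0017 and -0.04. In limma, the number called lower was 5 with at least 1 FPKM in every library and 5 with quantile normalization. It was also 5 after rescaling by median ratio or without mitochondrially encoded genes. It was 2 without Era+VK replicate 2, and 0 without a filter on low values or without each Era library in turn. At an unadjusted p under 0.05, 5 were lower in each of these fits that called none. With Era+VK replicate 1 as the only Era+VK library, 1 of the 8 was above 0, against 57.4% of all genes. The lower RNA of these genes stood beside collagen chain RNA for which no difference passed the test.

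**Figure D5:**
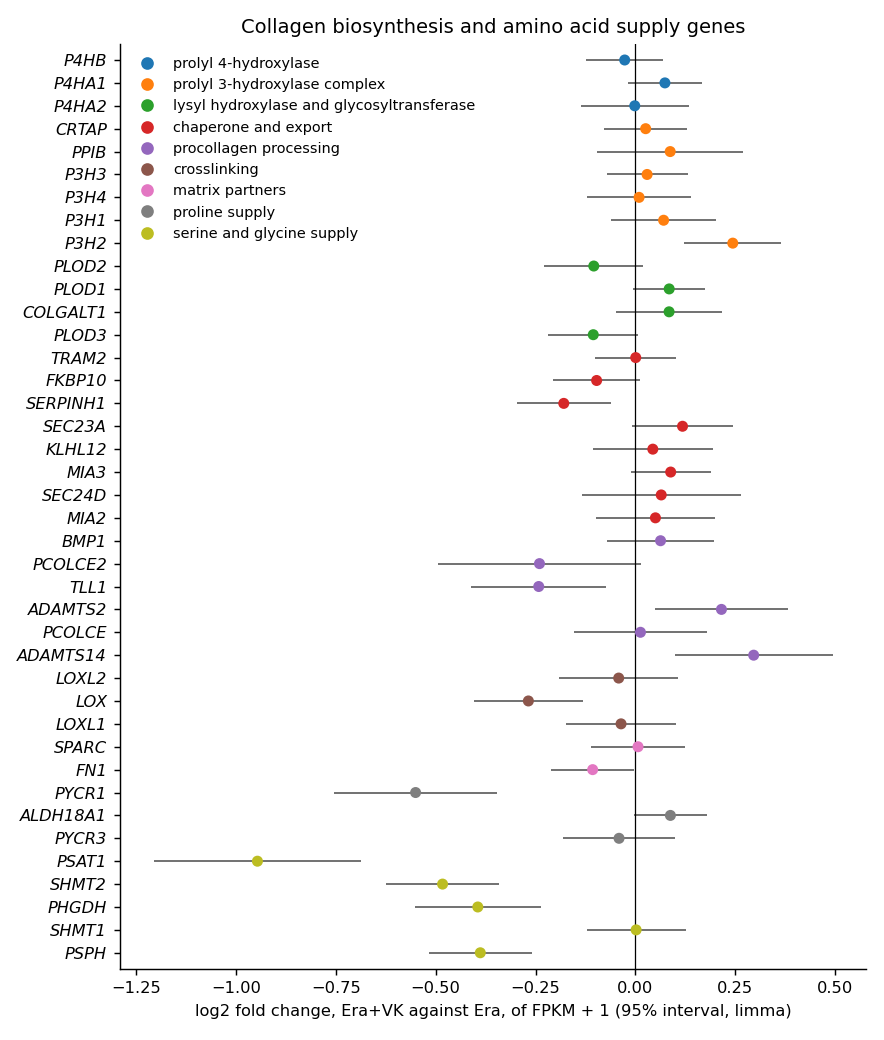
Log2 fold change of FPKM + 1, Era+VK against Era, for 32 genes of collagen biosynthesis and 8 genes of proline, serine and glycine supply. Points are coloured by step and bars are 95% intervals from limma. Most biosynthesis genes lie near 0, and PSAT1, PYCR1, SHMT2, PHGDH and PSPH lie to the left, from -0.95 to -0.39.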

How the data were processed

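The authors deposited FPKM values per gene, with 2 decimals, for 6 libraries (3 Era, 3 Era+VK) sequenced as paired ends. The submitters' processing notes name cutadapt, HISAT2, StringTie 2.1.6 and the mouse build mm10, although the gene identifiers are human. The annotation, filters and strandedness are not given in the sources used here. A label field raises the number in the cell line's name with each library, but each title gives ARPE-19, which was used for all. Groups were taken from the labels.

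FPKM depend on the whole of a library's mapped fragments. Low values showed no whole-read steps, so no count model and no counting error were used. The 11981 genes averaging 1 FPKM or more entered limma 3.58.1 (R 4.3.3, empirical Bayes with trend) on log2(FPKM + 1), Era+VK against Era. P-values were adjusted by Benjamini-Hochberg and called at 0.05. This scale understates changes of low genes. The fit was tested on simulated data with log2 changes of 1 in either direction. The collagen genes had smaller ones, and the detection of those was not tested. The supply list was shortened by 1 gene, which is not reported here.

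The rule for collagen genes, their classes, the lists of biosynthesis, supply and marker genes and the tests were chosen with earlier results of these data known. Values in every library are given for collagen genes averaging 10 FPKM or more, group means for those from 1 to 10 FPKM, and ranges for the rest. COL6A1 and 4 supply genes are also given by library, as are P3H2, SERPINH1 and LOX of the biosynthesis list, picked after their values were seen. Of the biosynthesis genes, SPARC fell under the rule (highest mean), and the others were named after their values were seen.

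Positions and coding sequences (longest coding transcript) are from GENCODE 29 on GRCh38, matched for 37 of 37 genes. Promoters are from RefSeq (GRCh38.p14), matched for 9 of the 12 genes tested. Alternatives were a pseudocount of 0.1, quantile normalization, no filter, at least 1 FPKM in each library, rescaling by median ratio or without mitochondrially encoded genes, the replicate number as a block, each library left out, and Era+VK replicates 2 and 3 left out together.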

Additional observations from a re-analysis of the deposited data

How the results depend on the processing

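In limma, 0 collagen chain genes and 0 biosynthesis genes were called under any of the 14 alternatives, with 1 to 4 collagen chain genes at an unadjusted p under 0.05, each higher, where 5.56% to 13% of all genes were higher at that p. COL6A1 kept a log2 fold change of 0.23 to 0.39 (adjusted p 0.111 to 0.349) and COL12A1 of 0.13 to 0.25 (adjusted p 0.0860 to 0.571). Values near 0 changed sign. COL8A1 was 0.0266 with quantile normalization and 0.0086 with Era+VK replicates 2 and 3 left out together, which also turned COL4A2 (0.0178), COL4A1 (0.0585) and COL4A3 (0.130), and COL18A1 was -0.0037 after rescaling by median ratio. With each library left out in turn, COL8A1 ranged from -0.0721 to 0.0454, COL18A1 from -0.0046 to 0.0626, COL4A2 from -0.0556 to 0.0102, COL4A1 from -0.0560 to 0.0176 and COL4A3 from -0.0970 to 0.0901. With that pair of libraries left out, which leaves Era+VK replicate 1, the log2 ratio of summed FPKM was 0.121 for all collagen chains. It was 0.175 for fibrillar and 0.0613 for basement membrane chains. Without Era+VK replicate 1, the ratios were 0.0178, 0.0175 and -0.0488, in the same order.

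Of the supply genes, 4 were called lower. The count was 5 with at least 1 FPKM in every library, with quantile normalization or after either rescaling. It was 0 without a filter, 2 with the replicate number as a block, and 0 to 4 with each library left out. Over all genes, 16 were called higher and 58 lower, which became 0 and 1 without a filter, 33 and 89 with 1 FPKM in every library, 16 and 96 with quantile normalization, 13 and 105 after rescaling by median ratio, 5 and 37 with the block, 0 and 2 without Era replicate 1 or 2, 1 and 4 without Era replicate 3, 30 and 40 without Era+VK replicate 1, 8 and 34 without replicate 3, and 6 and 29 without Era+VK replicates 2 and 3. The cause was not tested. Same-numbered libraries of both groups deviated together with correlations of 0.07, 0.10 and 0.02. Era replicates 1 and 2 correlated best with the same-numbered Era+VK library, and Era replicate 3 with Era+VK replicate 1 (0.04). These small values do not settle whether the numbers mark pairs, and the main fit took no pairs. The block changed no call of a collagen gene. Depth is unknown, so no limit of detection can be set for the 25 genes under 1 FPKM.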
